A study of Mus musculus with 6 samples.

Results

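The genes described here are 9 transcription factors of blood vessel endothelium (Foxf1, Foxf2, Foxq1, Sox7, Sox17, Sox18, Erg, Lef1 and Tal1) and Fendrr, a long noncoding RNA transcribed beside Foxf1. They were picked by name from the 24421 gene symbols of a count table, with their difference between NeuroD1 and GFP already known. All 10 have a row, and all 10 had enough reads to be among the 14852 genes tested. Because the known difference chose them, their levels in that comparison are given as a description with no test. The samples were brain tissue of C57BL/6 mice, described as cortex in the design text, in which the middle cerebral artery had been blocked (MCAO), an operation that causes an ischaemic stroke. All animals had MCAO, and no group without stroke is analysed here. In the control group, 3 samples came from animals that received green fluorescent protein (GFP). In the other group, 3 samples came from animals that received NeuroD1, a proneural transcription factor, given intravenously as gene therapy according to the title. The vector, its promoter, the age and sex of the animals and the time after stroke are unknown here. Nothing in the labels says that each sample was a separate animal, so the spread between samples may be partly technical.

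Endothelial cells line blood vessels and, in brain, form the blood-brain barrier. Erg, a factor of the ETS family, maintains endothelial identity and the junctions between the cells. Sox7, Sox17 and Sox18 form the SoxF group, which acts in vessel growth and in the choice of arterial fate. Foxf2, Foxq1 and Lef1 belong to the transcription factors that distinguish brain endothelium from that of other organs, and Lef1 carries Wnt and beta-catenin signals to DNA. Tal1 works with Lmo2 and GATA factors in blood and endothelial development.

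The libraries held 7753101 to 9698795 counts with GFP and 10843273 to 13440244 with NeuroD1, so every NeuroD1 library was deeper. Levels are given as CPM, the usual read counts relative to library size, scaled between libraries by the trimmed mean of M values (TMM) method. Neurod1, the delivered gene, stood at 6.48, 3.87 and 5.43 CPM with GFP and at 48.5, 14.6 and 38.4 CPM with NeuroD1. All 3 NeuroD1 libraries lay above all GFP libraries (log2 fold change 2.68, SE 0.45, edgeR adjusted p = 0.136). The unadjusted edgeR p of Neurod1 was 0.000279. The adjusted value of 0.136 was the smallest of all tested genes and was shared by 497 genes, so it does not rank them. Neuronal markers were present in all libraries, with summed levels of 2512.6 to 4395.4 CPM with GFP and 1651.3 to 5141.9 CPM with NeuroD1. Over all genes, 0 of 14852 passed edgeR's quasi-likelihood test at a Benjamini-Hochberg adjusted p under 0.05 (0.0%). Without adjustment, 3564 genes (24.0%) had a p under 0.05. After adjustment limma-voom called 0 genes, and DESeq2 called 3.87% of the genes it tested lower and 5.04% higher, 1366 genes in all.

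Fendrr lies head to head with Foxf1 on chromosome 8. Fendrr (121054882 to 121083110, minus strand, a processed transcript without a coding frame) and Foxf1 (121084386 to 121088144, plus strand, protein coding) start 1276 bases apart, in GENCODE M21 on GRCm38. The stretch between their starts is therefore upstream of both. Its first 250 bases as read from the Fendrr start are shown because Fendrr differed most between the groups. An internal start of Erg, with a SOX motif, and one of Lef1, with TCF and LEF motifs, are shown as examples. Entries not shown, such as one of Tal1, also hold motifs of this kind. The promoter table, from RefSeq on GRCm38.p6, has 11 entries for 5 members (Fendrr, Foxf2, Erg, Lef1 and Tal1) and none was matched for the other 5. Each line runs 5′ to 3′ towards the start site, and capitals mark matches to the forkhead, SOX, GATA or TCF and LEF motifs; matches to the general E-box CANNTG are left in lower case.
Fendrr, chr8:121083111-121083360, minus strand: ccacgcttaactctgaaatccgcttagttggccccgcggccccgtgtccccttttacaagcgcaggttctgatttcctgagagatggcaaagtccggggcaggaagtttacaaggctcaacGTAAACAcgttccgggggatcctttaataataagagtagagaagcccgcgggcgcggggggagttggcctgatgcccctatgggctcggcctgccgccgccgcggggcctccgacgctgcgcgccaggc
Erg, entry 3, chr16:95459349-95459598, minus strand: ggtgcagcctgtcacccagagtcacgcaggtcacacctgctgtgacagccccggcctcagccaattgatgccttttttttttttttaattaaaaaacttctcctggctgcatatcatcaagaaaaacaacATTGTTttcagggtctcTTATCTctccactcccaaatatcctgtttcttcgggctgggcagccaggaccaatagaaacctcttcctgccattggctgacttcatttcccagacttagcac
Lef1, entry 4, chr3:131156044-131156293, plus strand: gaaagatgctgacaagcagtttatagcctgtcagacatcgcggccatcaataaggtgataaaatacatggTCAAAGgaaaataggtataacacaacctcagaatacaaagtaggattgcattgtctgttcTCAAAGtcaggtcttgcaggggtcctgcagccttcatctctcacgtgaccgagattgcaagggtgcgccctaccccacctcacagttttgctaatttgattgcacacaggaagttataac
In the Fendrr sequence the capitals are the forkhead motif GTAAACA, 129 bases before the start. In the Erg sequence they are the SOX motif AACAAT on the reverse strand, 120 bases before the start, and the GATA motif AGATAA on the reverse strand, 103 bases before it. In the Lef1 sequence they are 2 copies of the TCF and LEF motif TCAAAG, 180 and 120 bases before the start. Both strands of the 250 bases before each of 32851 promoter starts were searched. The forkhead letters were found in 3.17% of all promoters and in 1 of the 11 entries of the members. The SOX letters were found in 9.42% of all and in 1 of 11, and the GATA letters in 9.99% of all and in 2 of 11. The TCF and LEF letters were found in 13.8% of all and in 2 of 11. The ETS letters CGGAAG occur in 13.6% of all promoters and in 0 of 11, and the E-box letters CAGATG in 14.4% of all and in 0 of 11. The E-box CAGCTG was in 13% of all and in 2 of 11. The general form CANNTG, which includes both E-boxes, was in 66.2% of all and in 6 of 11. Entries 1 and 2 of Lef1 are overlapping windows that hold the same CANNTG site, so that site was counted in both. Several entries come from the same gene, so the 11 are not independent. The Tal1 entry that starts at its annotated gene start holds overlapping GATA and TCF and LEF letters. These matches describe letters in the windows, and counts per gene do not show which start was used.

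All 10 members had a lower fitted level with NeuroD1, with a median log2 fold change of -1.17, against a median of 0.0243 over all 14852 genes, of which 48.3% had a fitted value below 0. In 8 of 10 members every NeuroD1 library lay below every GFP library, against 15.3% of all tested genes. That comparison chose the members, so the count is a description. Bulk counts cannot tell fewer endothelial cells apart from less RNA per cell. The highest of the 6 libraries was GFP replicate 2 for 9 members, Foxf2 being the exception, and the lowest was NeuroD1 replicate 1 for all 10.

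**Figure D1:**
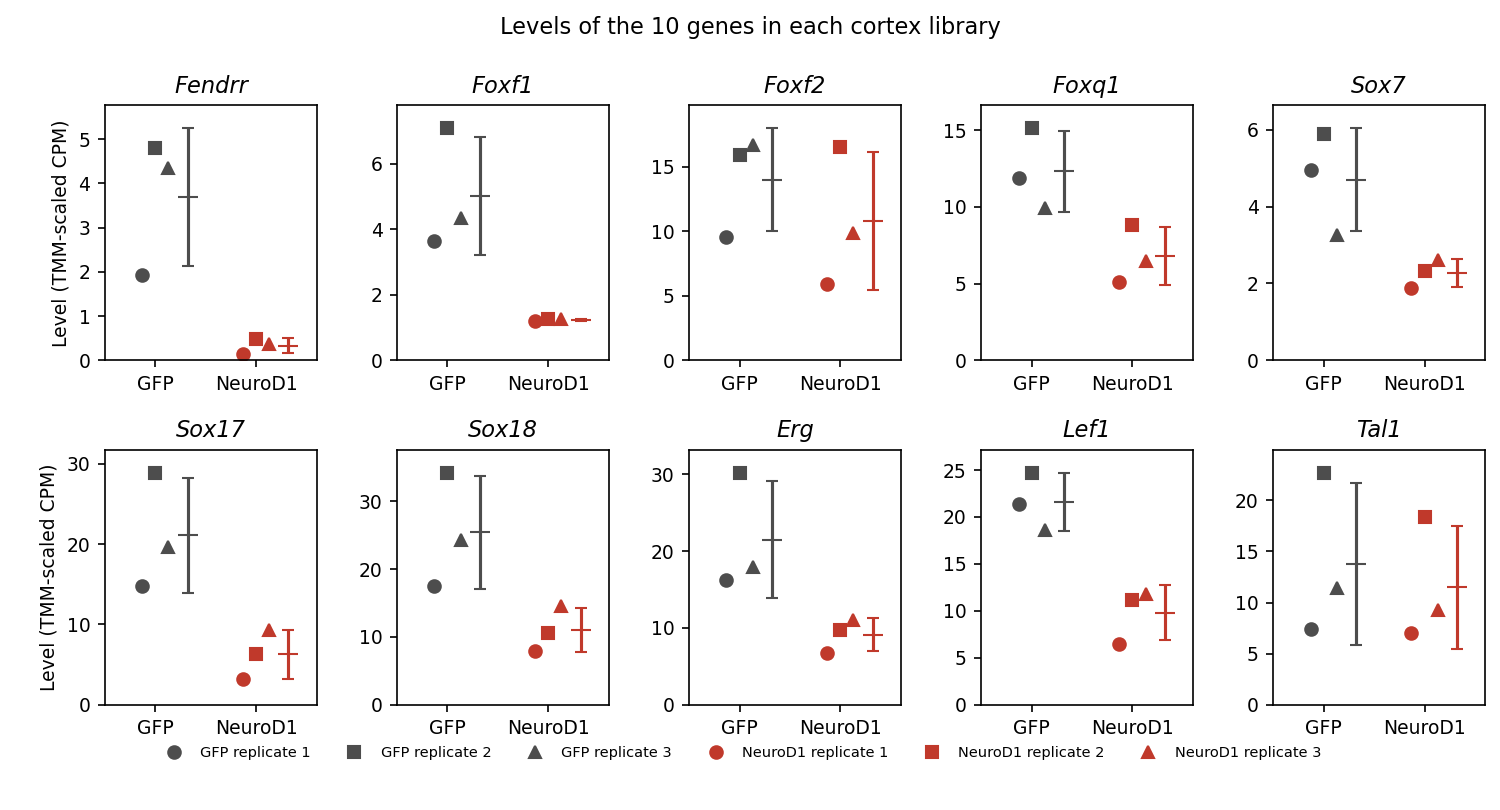
TMM-scaled CPM of each gene in the 3 GFP libraries (grey) and the 3 NeuroD1 libraries (red), with a linear axis from 0 in every panel and the mean ± SD beside the points. The groups do not overlap in 8 panels, while Foxf2 and Tal1 overlap.

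Fendrr, which guides chromatin regulators in developing mesoderm, had the largest difference of the 10. It had 19, 36 and 40 counts in GFP replicates 1, 2 and 3, or 1.92, 4.81 and 4.35 CPM. In the NeuroD1 replicates it had 2, 5 and 4 counts, or 0.151, 0.484 and 0.359 CPM. All NeuroD1 libraries had few reads of Fendrr and lay below every GFP library. The summed counts were 95 with GFP and 11 with NeuroD1, which gives an 11.3-fold lower rate with NeuroD1 and an exact 95% interval of 6.04 to 23.4 for counting error alone. The fitted log2 fold change was -3.46 (SE 0.59).

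Foxf1, a forkhead factor of mesenchyme and lung vessels, showed the second largest difference. Its levels were 3.65, 7.08 and 4.35 CPM in the GFP replicates and 1.21, 1.26 and 1.26 CPM in the NeuroD1 replicates. The NeuroD1 libraries were nearly equal, with 16, 13 and 14 counts, and all lay below the GFP libraries. The fitted log2 fold change was -2.0 (SE 0.39), a 4.01-fold lower level. The predicted gene Gm20388 overlaps Fendrr on the opposite strand and Foxf1 on the same strand in GENCODE M21. It has no row in the table used here, and without a stated strand setting its reads cannot be told apart from theirs.

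The difference in Fendrr was larger than that in Foxf1, which can be read within each library without any scaling. Fendrr made up 34.5%, 40.4% and 50.0% of the summed Fendrr and Foxf1 counts in GFP replicates 1, 2 and 3. It made up 11.1%, 27.8% and 22.2% in the NeuroD1 replicates, each out of 18 counts. The group shares did not overlap (41.7% ± 7.80 against 20.4% ± 8.49, SD, n = 3). The exact Clopper-Pearson intervals of single libraries did overlap, running from 22.2% to 61.4% over the GFP libraries and from 1.38% to 53.5% over the NeuroD1 libraries.

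Foxf2, the closest relative of Foxf1 and a gene of brain endothelium and pericytes, overlapped between the groups. Foxf2 (chromosome 13, 31625816 to 31631403, plus strand) stood at 9.52, 15.9 and 16.7 CPM with GFP and 5.95, 16.5 and 9.87 CPM with NeuroD1. NeuroD1 replicate 2 was as high as the upper GFP libraries, and the fitted log2 fold change was -0.38 (SE 0.40). The share of Foxf1 in the summed Foxf1 and Foxf2 counts was 26.4% ± 5.22 with GFP and 11.7% ± 4.90 with NeuroD1 (SD, n = 3). Every NeuroD1 share (16.8%, 7.07% and 11.3%) was below every GFP share (27.7%, 30.8% and 20.6%). The exact intervals of single libraries overlapped in part, with 15.2% to 27.0% in GFP replicate 3 and 9.94% to 25.9% in NeuroD1 replicate 1. Pericyte markers also overlapped between the groups in sum. Their summed level was 401.9 to 458.4 CPM with GFP and 308.2 to 538.5 CPM with NeuroD1, and 3 of 8 had a lower and 1 a higher level at an unadjusted edgeR p under 0.05 (11.5% and 12.5% of all tested genes), with 0 after adjustment. In NeuroD1 replicate 2 most of the pericyte sum was Pdgfrb (245.5 CPM) and Cspg4 (126.9 CPM). Of the 8 markers, 3 (Higd1b, Vtn and Kcnj8) were lower and 0 higher without overlap, against 15.3% and 14.2% of all tested genes. The part of pericytes in the Foxf2 values was not tested.

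Foxq1 (chromosome 13, 31556134 to 31560976, plus strand), a forkhead factor enriched in brain endothelium, starts 69682 bases before Foxf2. It stood at 11.9, 15.1 and 9.89 CPM with GFP and at 5.12, 8.81 and 6.46 CPM with NeuroD1. The groups did not overlap, although the highest NeuroD1 library was close to the lowest GFP library, and the fitted level was 1.81-fold lower (log2 fold change -0.86, SE 0.30). The share of Foxq1 in the Foxq1 and Foxf2 counts overlapped between the groups (47.2% ± 9.35 against 40.2% ± 5.79).

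Genes next to these forkhead members were counted in the same way. Of the 6 tested neighbours, 0 had a lower and 1, Exoc2, a higher level at an unadjusted edgeR p under 0.05 (11.5% and 12.5% of all tested genes), and 0 passed after adjustment over all genes. Their median log2 fold change was 0.57, and 0.09 without NeuroD1 replicate 2. Mthfsd, whose start is 24006 bases beyond that of Foxf1, stood at 22, 22.2 and 21.6 CPM with GFP and at 15.4, 19.6 and 21.7 CPM with NeuroD1 (log2 fold change -0.21, SE 0.21, edgeR adjusted p = 0.542). Foxc2, a forkhead factor of lymphatic and mesenchymal development 31785 bases beyond the Foxf1 start, had a fitted log2 fold change of 1.14 (SE 0.65, edgeR adjusted p = 0.309). Its 23.9 CPM in NeuroD1 replicate 2 stood far above the 2.54 to 7.70 CPM of the other 5 libraries. Foxc1, a related factor of meninges and pericytes 180817 bases beyond the Foxf2 start, had the same outlying library (78.5 against 19.4 to 25.6 CPM elsewhere), with a log2 fold change of 0.95 (SE 0.48, edgeR adjusted p = 0.256). Foxl1 had 0 to 5 counts per library and was not tested. The more distant genes Irf8, Gmds and Exoc2 had log2 fold changes of 0.35, 0.50 and 0.65, with edgeR adjusted p values of 0.493, 0.427 and 0.163. Meningeal fibroblast markers also peaked in NeuroD1 replicate 2, with a summed level of up to 6386.8 CPM against 806.8 to 1443.1 CPM with GFP, and their part in the Foxc1 and Foxc2 values was not tested.

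**Figure D2:**
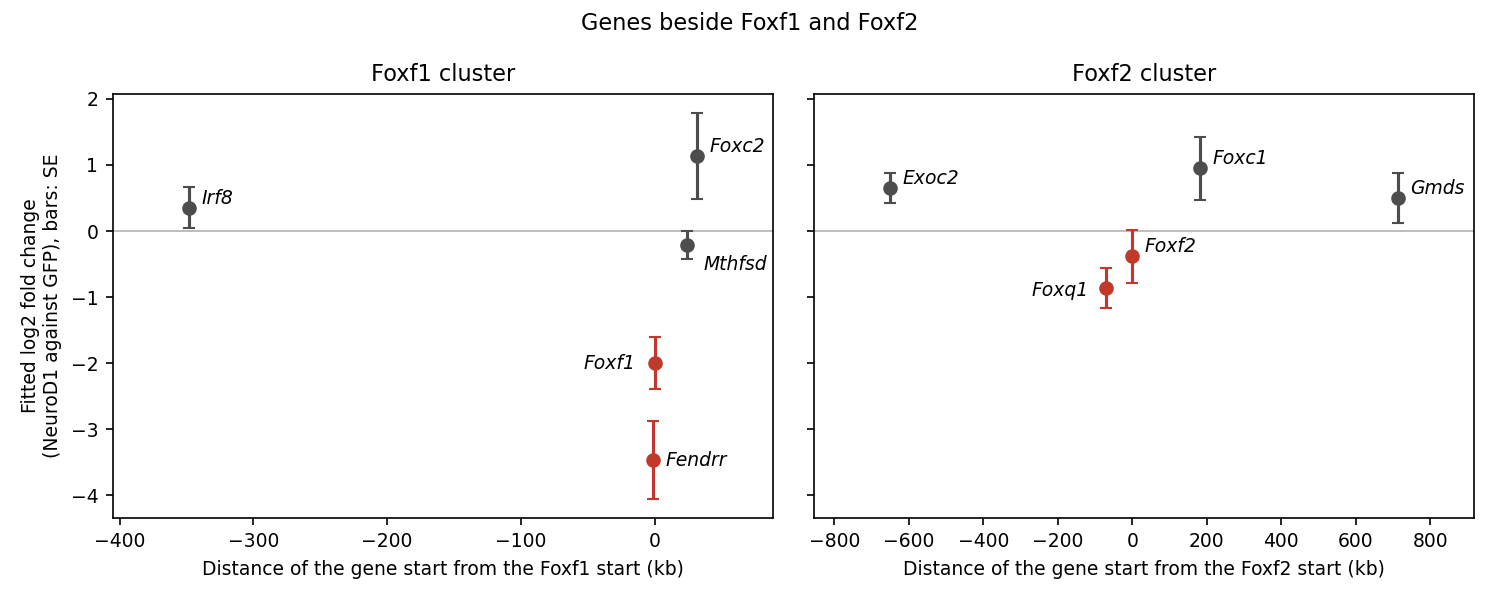
Fitted log2 fold change (NeuroD1 against GFP, error bars SE) of tested genes around Foxf1 (left) and Foxf2 (right), against the distance in kb between gene starts. Fendrr and Foxf1 (red, with the other members) lie at -3.46 and -2.0, while Mthfsd and Foxc2, within 32 kb, lie at -0.21 and 1.14.

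Among the SoxF genes, Sox17 differed most. Sox17 (chromosome 1, 4490931 to 4497354, minus strand), needed for arterial identity and for Wnt-dependent barrier formation, stood at 14.8, 28.9 and 19.6 CPM with GFP and at 3.16, 6.29 and 9.33 CPM with NeuroD1. Every NeuroD1 library was below every GFP library, and the fitted level was 3.37-fold lower (log2 fold change -1.75, SE 0.42). Sox18 (chromosome 2, 181669836 to 181671640, minus strand), a factor of vascular and lymphatic development, stood at 17.5, 34.2 and 24.3 CPM with GFP and at 7.91, 10.6 and 14.5 CPM with NeuroD1. It too did not overlap, with a 2.30-fold lower fitted level (log2 fold change -1.20, SE 0.33).

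Sox7 (chromosome 14, 63943673 to 63950732, plus strand), the least abundant of the SoxF genes, stood at 4.96, 5.88 and 3.26 CPM with GFP and at 1.88, 2.32 and 2.60 CPM with NeuroD1. The groups did not overlap, and the fitted level was 2.06-fold lower (log2 fold change -1.05, SE 0.36). Sox17 was lower relative to Sox18 within each library. Its share of the summed Sox17 and Sox18 counts was 45.8%, 45.8% and 44.6% in the GFP replicates and 28.6%, 37.1% and 39.2% in the NeuroD1 replicates. The GFP shares were nearly equal and all lay above the NeuroD1 shares (45.4% ± 0.699 against 35% ± 5.65, SD, n = 3). The exact intervals of single libraries overlapped in part, with 39.6% to 49.5% in GFP replicate 3 and 33.3% to 45.4% in NeuroD1 replicate 3. The share of Sox7 in the Sox7 and Sox18 counts overlapped (16.2% ± 5.30 against 17.5% ± 2.02). Cells of the oligodendrocyte lineage also express Sox17. Their summed markers, mostly the myelin gene Mbp, were at 10403 to 19886 CPM with GFP and 6851.2 to 9182.9 CPM with NeuroD1, while the lineage factor Olig2 stood at 48.2 to 51.2 CPM and at 38 to 50.4 CPM. Their part in the Sox17 values was not tested.

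**Figure D3:**
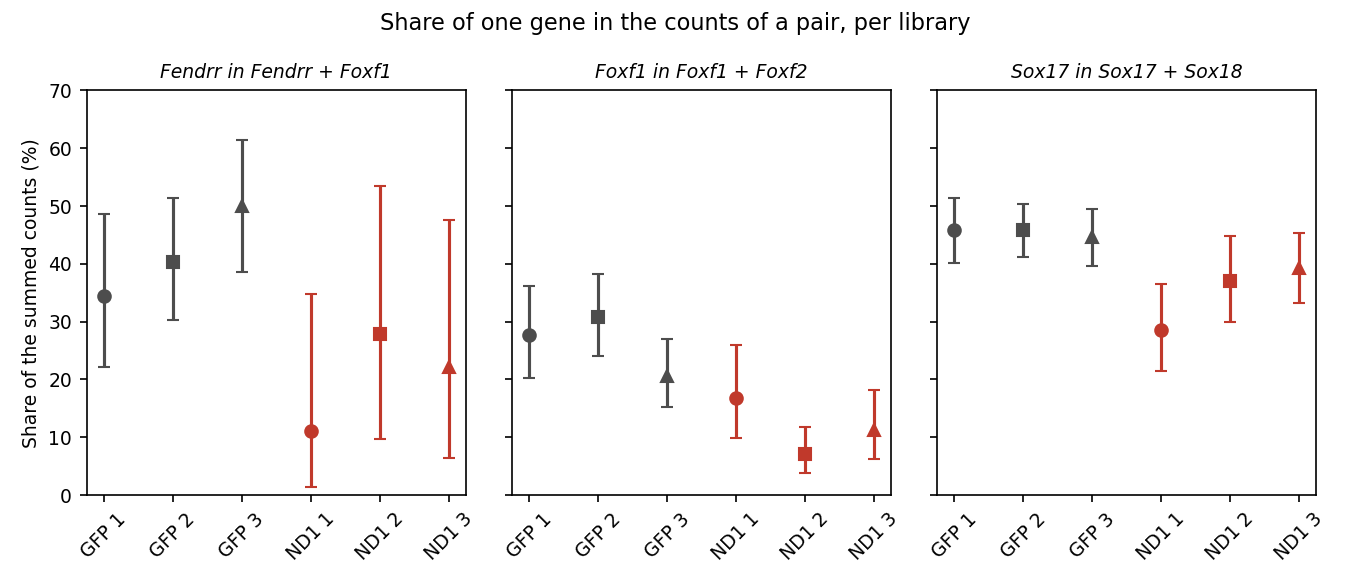
Share (%) of Fendrr in Fendrr + Foxf1, of Foxf1 in Foxf1 + Foxf2 and of Sox17 in Sox17 + Sox18 counts, per library, with exact 95% binomial intervals for counting error (GFP grey, NeuroD1 red and labelled ND1). The NeuroD1 shares lie below the GFP shares in the 3 pairs drawn. Sox7 in Sox7 + Sox18 and Foxq1 in Foxq1 + Foxf2, which are not drawn, overlapped between the groups. The Fendrr intervals are wide because each NeuroD1 library has 18 counts for the pair.

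Erg and Lef1 had nearly the same difference. Erg (chromosome 16, 95359169 to 95586593, minus strand) stood at 16.3, 30.2 and 17.9 CPM with GFP and at 6.70, 9.77 and 11.0 CPM with NeuroD1. Lef1 (chromosome 3, 131110471 to 131224356, plus strand) stood at 21.4, 24.7 and 18.6 CPM with GFP and at 6.48, 11.2 and 11.8 CPM with NeuroD1. Neither gene overlapped between the groups, and the fitted levels were 2.35-fold lower for Erg (log2 fold change -1.23, SE 0.32) and 2.20-fold lower for Lef1 (-1.14, SE 0.28). T cells also express Lef1, and their summed markers were higher with NeuroD1, at 34.1 to 34.6 CPM against 6.48 to 19.6 CPM with GFP. In NeuroD1 replicate 2 most of this sum was Cd4 (25.4 CPM). Cd3e, at 1.35 CPM in that library, lay within its GFP values of 0.203 to 1.96 CPM. Of 6 tested T cell markers, 4 were higher without overlap, against 14.2% of all tested genes. The part of T cells in the Lef1 values was not tested. Thalamic neurons express it as well, and their summed markers overlapped (163.1 to 209.6 CPM with GFP, 165.8 to 354.9 CPM with NeuroD1). Most of the thalamic sum in NeuroD1 replicate 2 was Prkcd (132.7 CPM) and Zic1 (114.7 CPM). The part of these neurons in the Lef1 values was not tested.

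Tal1 (chromosome 4, 115056426 to 115071755, plus strand) varied more within the groups than between them. It stood at 7.39, 22.7 and 11.4 CPM with GFP and at 7.0, 18.4 and 9.24 CPM with NeuroD1. Replicate 2 was the highest and replicate 1 the lowest in both groups, and the fitted log2 fold change was -0.26 (SE 0.48). Without GFP replicate 2 it was 0.29, on the other side of 0. The red blood cell markers Gata1, Hba-a1, Hbb-bs and Hbb-bt had 0 counts in all 6 libraries. The globin genes belong to families of near-identical copies, so their reads may have been left uncounted, and Alas2, a red cell gene named after its values were seen, was at 0.151 to 1.01 CPM. Among 9 tested partners of Tal1, Gata2 was lower and Tcf12 and Runx1 were higher at an unadjusted edgeR p under 0.05 (11.5% and 12.5% of all tested genes). After adjustment 0 passed. Counts of 1 lower and 2 higher are too few to set the partners apart from all genes. Gata2, which binds DNA beside Tal1, stood at 12.4, 15.6 and 12.6 CPM with GFP and at 2.86, 5.52 and 9.33 CPM with NeuroD1 (log2 fold change -1.20, SE 0.41, edgeR adjusted p = 0.153). Lyl1, the closest relative of Tal1, and Lmo2, its bridging partner, were named after their values were seen and overlapped between the groups. Lyl1 stood at 23.2, 65.4 and 48.4 CPM with GFP and at 27.0, 66.6 and 30.8 CPM with NeuroD1, so replicate 2 was the highest in both groups, as for Tal1. Tcf12, an E protein that pairs with Tal1, averaged 60.6 ± 5.46 against 92.2 ± 21.9 CPM (edgeR adjusted p = 0.17). Runx1, a factor of blood cells and microglia, was at 22 ± 2.02 CPM in GFP libraries against 51.6 ± 32.1 CPM (SD, n = 3, edgeR adjusted p = 0.145).

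Per kilobase of exon, Sox18 had the highest and Fendrr the lowest level in both groups. With GFP it ran from Sox18 (15.6 ± 5.17 CPM per kb) through Erg (6.20 ± 2.19), Foxf2 (5.95 ± 1.67), Sox17 (4.41 ± 1.5), Tal1 (3.16 ± 1.81), Foxq1 (2.54 ± 0.541), Lef1 (2.45 ± 0.349), Foxf1 (2.08 ± 0.751) and Sox7 (1.42 ± 0.403) to Fendrr (1.11 ± 0.466, SD, n = 3). Among neighbours in this order, Sox18 and Erg were farther apart than their summed SDs, and the others were not. With NeuroD1, Sox18 was at 6.79 ± 2.03, Foxf2 at 4.57 ± 2.27, Erg at 2.64 ± 0.633 and Tal1 at 2.64 ± 1.38 CPM per kb. Foxq1 (1.40 ± 0.385), Sox17 (1.31 ± 0.647) and Lef1 (1.12 ± 0.331) followed. Sox7 (0.688 ± 0.110), Foxf1 (0.513 ± 0.0125) and Fendrr (0.0997 ± 0.0507) came last and were each separated from the next by more than their summed SDs. Exon lengths are from GENCODE M21, which may not be the annotation the authors counted on.

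General endothelial marker genes also had lower levels with NeuroD1. Of 22 endothelial defining markers, 14 were lower and 1, Cd93, which myeloid cells also express, was higher at an unadjusted edgeR p under 0.05 (11.5% and 12.5% of all tested genes), with a median log2 fold change of -0.86, and 0 passed after adjustment over all genes. DESeq2 called 10 of the 22 lower (3.87% of all genes it tested). The junction gene Cldn5, named after its values were seen, stood at 65.0, 117.5 and 80.0 CPM with GFP and at 23.2, 25.1 and 59.2 CPM with NeuroD1. Cdh5, the cadherin of endothelial junctions and also named after its values were seen, overlapped between the groups (62.0, 92.0 and 62.3 against 40.4, 70.2 and 51.5 CPM). The mean log2 level of the 22 markers was 5.79 ± 0.37 with GFP and 4.87 ± 0.44 with NeuroD1 (SD, n = 3), a difference of -0.92, and NeuroD1 replicate 3 (5.35) was close to the lowest GFP library (5.55).

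Relative to these markers, 7 of the 10 members overlapped between the groups. For each library the mean log2 level of the 22 markers was subtracted from the log2 level of each member. Fendrr, Foxf1 and Sox17 remained lower in every NeuroD1 library than in any GFP library. The markers themselves differed unevenly, with fitted log2 fold changes from -1.57 (Robo4 and Ly6c1) to 1.08 (Cd93). Single markers therefore also fell further than the marker mean, so falling below it is not particular to these members. The fitted log2 fold changes of Fendrr (-3.46), Foxf1 (-2.0) and Sox17 (-1.75) were below that of every marker. Fendrr was at -4.60, -3.95 and -3.49 with GFP and at -7.22, -5.81 and -6.83 with NeuroD1, a difference of -2.61 on the log2 scale. Foxf1 was at -3.68, -3.39 and -3.49 with GFP and at -4.22, -4.43 and -5.02 with NeuroD1, a difference of -1.04. Sox17 was at -1.66, -1.36 and -1.32 with GFP and at -2.83, -2.11 and -2.13 with NeuroD1, a difference of -0.91. In the same measure 172 of 14806 genes (1.16%) were lower and 7170 (48.4%) higher without overlap, since subtracting a marker mean that is lower with NeuroD1 raises every gene's value there. The members' contrast was known beforehand, so this too is a description.

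For the other members the groups overlapped on this scale. Erg, Sox18 and Lef1 differed by -0.29, -0.28 and -0.26 and Sox7 by -0.1. Foxq1 differed by 0.05, Foxf2 by 0.46 and Tal1 by 0.69. For Foxq1 and Sox7 the sign changed when single libraries were left out. For Fendrr the difference ran from -3.02 to -2.31 over the 6 left-out libraries, for Foxf1 between -1.21 and -0.81 and for Sox17 between -1.03 and -0.67.

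**Figure D4:**
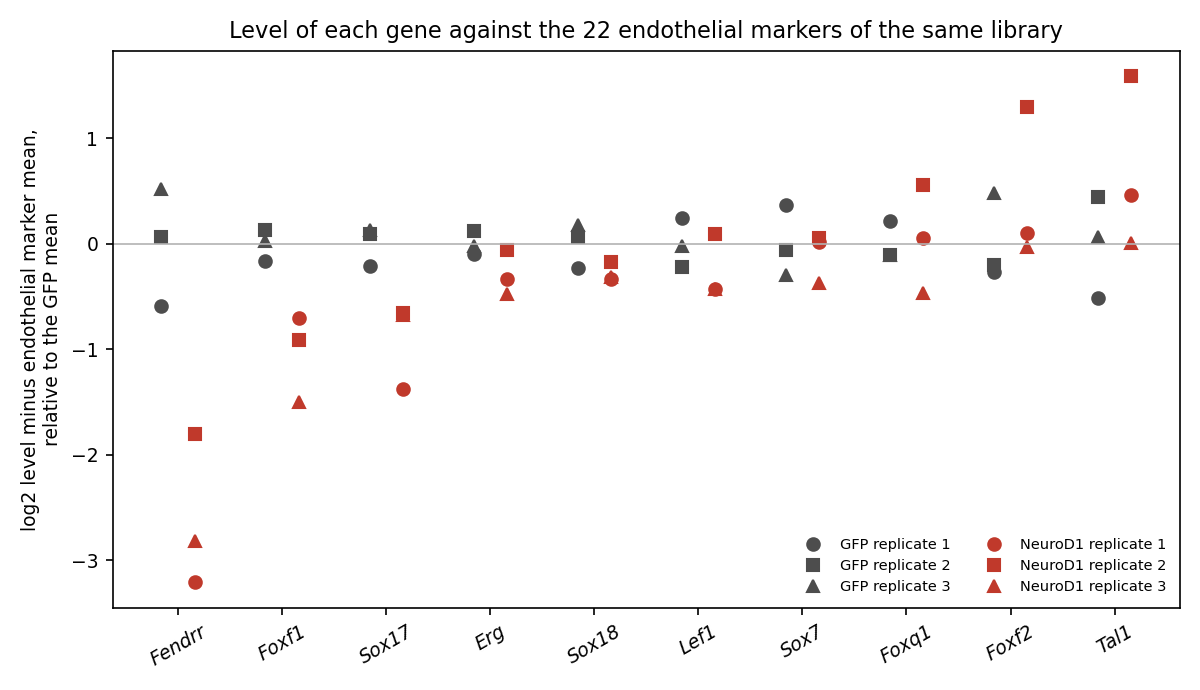
Log2 level of each gene minus the mean log2 level of 22 endothelial markers in the same library, set to 0 at the GFP mean of each gene (GFP grey, NeuroD1 red, shapes are replicate numbers). Fendrr, Foxf1 and Sox17 are lower in all 3 NeuroD1 libraries, and the other 7 genes overlap.

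Other endothelial transcription factors had fitted values on both sides of 0. Of 26 tested, 6 (among them Sox13 and Gata2) were lower and 2 (Fli1 and Etv6) higher at an unadjusted edgeR p under 0.05 (11.5% and 12.5% of all tested genes), with a median log2 fold change of -0.16, and 0 passed after adjustment. DESeq2 called 1 lower, Sox13 (3.87% of all genes it tested). The 6 lower were 0 without GFP replicate 2 and 3 without NeuroD1 replicate 1. Sox13, a SoxD factor, averaged 23.5 ± 7.69 CPM in GFP libraries against 11.7 ± 2.96 CPM (SD, n = 3, edgeR adjusted p = 0.141). The ETS factors Fli1 and Etv6 lay on the other side from Erg. Fli1, the closest relative of Erg and also a gene of blood cells and microglia, stood at 34.4, 35.5 and 33.6 CPM with GFP and at 56.3, 105.2 and 42.1 CPM with NeuroD1 (log2 fold change 0.97, SE 0.32, edgeR adjusted p = 0.148). Etv6 averaged 47.7 ± 0.482 CPM with GFP and 84.0 ± 31.2 CPM with NeuroD1 (edgeR adjusted p = 0.147). Ets1, named after its values were seen, differed little, at 37.5 ± 1.58 CPM with GFP and 34.9 to 35.6 CPM with NeuroD1. Microglia markers summed to 2428.8 to 2954.7 CPM with GFP and 2911.5 to 4304.0 CPM with NeuroD1, and their part in the Fli1 and Runx1 values was not tested.

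Genes reported as targets of Erg and the SoxF factors were mostly on the lower side. Of 18, 10 were lower and 0 higher at an unadjusted edgeR p under 0.05 (11.5% and 12.5% of all tested genes), with a median log2 fold change of -0.73. After adjustment 0 passed, while DESeq2 called 6 lower (3.87% of all genes it tested). This list shares 8 genes with the endothelial markers, so the lists are not separate evidence. Robo4, a receptor that stabilises vessels, averaged 28.8 ± 11.3 CPM with GFP and 9.71 ± 4.25 CPM with NeuroD1 (edgeR adjusted p = 0.136). Egfl7, an endothelial matrix protein, averaged 56.9 ± 17.4 against 21 ± 10.1 CPM, and Tek, the angiopoietin receptor, 43.4 ± 7.35 against 15.8 ± 7.50 CPM, each with an edgeR adjusted p of 0.136. Dll4, the arterial Notch ligand that Sox17 and Erg are known to act on, was named after its values were seen. It stood at 4.66, 8.95 and 7.39 CPM with GFP and at 1.58, 3.19 and 3.05 CPM with NeuroD1.

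In the endothelial Wnt and beta-catenin list, to which Lef1 answers, 6 of 22 genes were lower and 3 (Znrf3, Lrp6 and Lrp5) higher at an unadjusted edgeR p under 0.05, against 11.5% and 12.5% of all tested genes. The median log2 fold change was -0.21, 0 passed after adjustment, and DESeq2 called 3 lower and 1 higher (3.87% and 5.04% of all genes it tested). Without GFP replicate 2 the 6 lower were 3. The Wnt feedback inhibitor Nkd1 averaged 30.1 ± 4.67 CPM with GFP against 15.9 ± 3.10 CPM (SD, n = 3, edgeR adjusted p = 0.136). Notum, also a feedback inhibitor, averaged 6.12 ± 2.02 against 2.29 ± 0.966 CPM (edgeR adjusted p = 0.141). Znrf3 went the other way, at 11.7 ± 3.09 against 21.3 ± 3.38 CPM (edgeR adjusted p = 0.141). Plvap, a protein of leaky vessels that Wnt signals repress, stood at 11.3 to 31.0 CPM with GFP and 7.9 to 10.5 CPM with NeuroD1 (edgeR adjusted p = 0.14). The other TCF factors did not follow Lef1 and were named after their values were seen. Tcf7 stood at 6.48 to 11.0 CPM with GFP and 6.93 to 9.97 CPM with NeuroD1, and Tcf7l2 at 17.3 to 23.5 and 14.8 to 29 CPM.

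In the remaining marker lists 0 genes passed edgeR after adjustment with treatment as the only term, and the counts at an unadjusted p under 0.05 (11.5% of all tested genes lower, 12.5% higher) follow. Smooth muscle markers had 5 of 6 lower (median log2 fold change -1.16), among them the myosin gene Myh11 at 18.6 to 69.1 against 6.93 to 15.5 CPM, with summed levels of 101.5 to 266.5 CPM with GFP and 43.0 to 103.7 CPM with NeuroD1. Meningeal fibroblast markers had 4 of 8 higher (median 1.64), the matrix genes Lum, Dcn, Col1a1 and Col1a2, and T cell markers 3 of 6 higher (median 1.56), Cd3g, Cd4 and Cd8b1. Among pericyte markers, Higd1b, Vtn and Kcnj8 were lower and Cspg4, also a gene of oligodendrocyte precursors, was higher (median -0.52). Oligodendrocyte lineage markers had Mbp and Mog of 9 lower and Pdgfra, which fibroblasts also express, higher (median -0.31), and astrocyte markers had Gfap of 6 lower (median -0.26). Neuronal, thalamic and microglia markers had 0 of 6, 0 of 8 and 0 of 6 in either direction (medians 0.17, 0.17 and 0.18). Lymphatic endothelial markers had Flt4 of 4 lower (median 0.11), platelet markers Itga2b lower and Pf4 higher of 3 (median -0.63), and the 1 tested erythroid gene, Epor, a log2 fold change of -0.33.

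The members fell into patterns of likeness over the 6 libraries. The measure was the root mean square difference between log2 levels (after adding 0.1 CPM) centred on each gene's own mean. Sox18 and Erg were the closest pair of members (0.13), followed by Erg and Lef1 (0.21), Foxq1 and Sox7 (0.22) and Sox7 and Lef1 (0.22). Foxf2 was closest to Tal1 (0.36). Among 14728 other genes, those most like the mean of the 10 members were Dcdc2b (0.09), Metap1d (0.12), Catsper2 (0.13), Plekhb1 (0.13) and Rhebl1 (0.14). None of these 5 is on the fixed endothelial lists. Dcdc2b stood at 7.19, 11.4 and 9.02 CPM with GFP and at 2.64, 4.06 and 4.04 CPM with NeuroD1. Pkd2l1 (0.36) and Ovgp1 (0.41) were nearest to Fendrr, and Gm11744 (0.19) and the cytokine gene Clcf1 (0.25) nearest to Foxf1. All libraries share the same groups and depth order, so these distances are descriptions.

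With any single library left out, Fendrr had the largest difference of the 10, while Foxf1 and Sox17 changed places without NeuroD1 replicate 3. The fitted log2 fold change of Fendrr lay between -3.81 and -3.08, that of Foxf1 between -2.21 and -1.68 and that of Sox17 between -2.15 and -1.42. For Sox18, Erg, Lef1, Sox7 and Foxq1 the values lay between -1.44 and -0.68. Foxf2 lay between -0.82 and -0.08 and Tal1 between -0.75 and 0.29. The number of members without overlap was 8 in each case, against 16.4% to 25.1% of all tested genes.

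**Figure D5:**
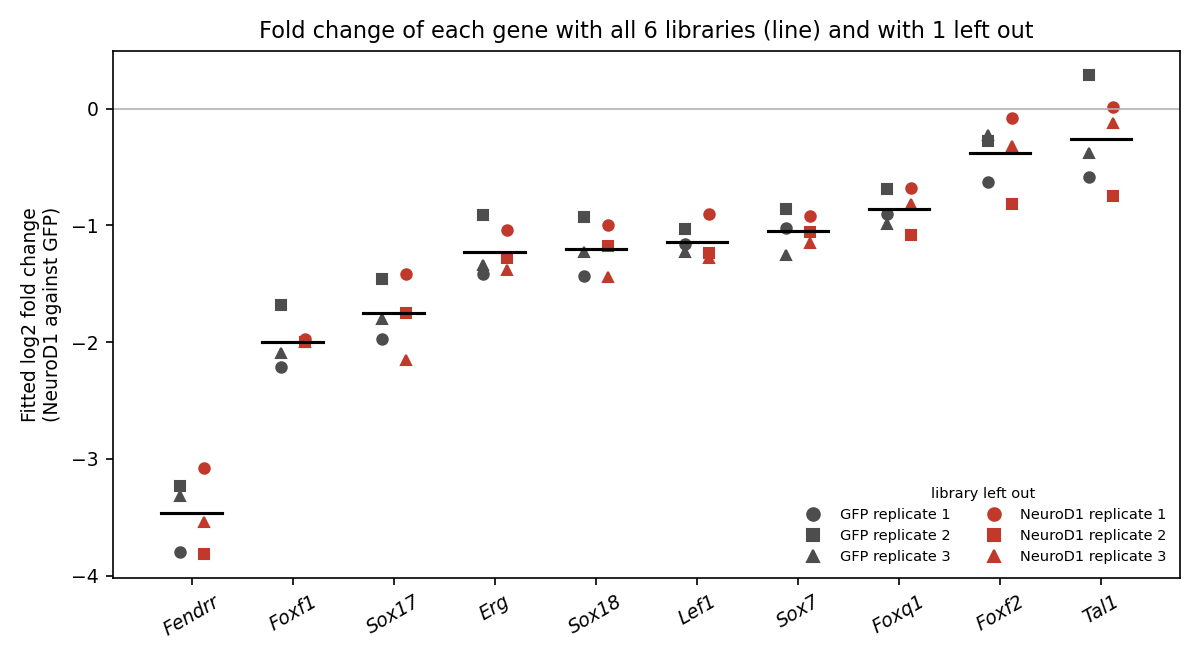
Fitted log2 fold change (NeuroD1 against GFP) of each gene with all 6 libraries (black line) and with 1 library left out (points, colour and shape name the library left out). Fendrr stays between -3.81 and -3.08, and Tal1 crosses 0.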

How the data were processed

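For each of 6 libraries the authors deposited unnormalised counts per gene symbol. Per the file headers, featureCounts made them with a gene file of mm10. The submitters' processing notes list HISAT2 2.0.1, DESeq2 1.16.1 and GRCm38 without saying what each was used for. No source used here states the strand setting, annotation release or read filters. Columns were matched to samples by the description in the labels.

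The test was the quasi-likelihood test of edgeR 4.0.16 (R 4.3.3) with TMM scaling and treatment as the only term. Genes were kept by filterByExpr (minimum count 10, minimum total 15), and the Benjamini-Hochberg adjustment ran over every gene kept, with calls at an adjusted p under 0.05. Standard errors came from the F statistic. The alternatives were DESeq2 1.42.0, limma-voom (limma 3.58.1), other scalings and filters, a replicate block and each library left out. The fits were tested on simulated data. The members and the 18 other gene lists were chosen with earlier results of these data known. Named were the members, Neurod1, up to 3 genes of smallest p per list, the neighbours of the Fox genes and the genes most like the members in pattern, and all other genes were named after their values were seen. Counts of 2 libraries of one group differed by more than sampling noise (chi-square per gene 28.9 to 107.8), so none was treated as a duplicate. The closest pair of all was across the groups, GFP replicate 1 with NeuroD1 replicate 3 (24.9). NeuroD1 replicate 3 was nearer to GFP replicates 1 and 3 (24.9 and 30.0) than to NeuroD1 replicates 1 and 2 (32.7 and 107.8). Its value with GFP replicate 2 was 89.0. Intervals cover counting error only.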

Additional observations from a re-analysis of the deposited data

How the results depend on the processing

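The number of genes past the threshold was 0 with the main test, with limma-voom, with size factors or upper quartile scaling and with no filter or a stricter filter. It was 1366 with DESeq2 and between 0 and 1 with a library left out, the 1 gene being Neurod1 without NeuroD1 replicate 2. With the replicate block edgeR called 479 genes, among them Neurod1 (adjusted p = 0.0447) and 4 of 6 smooth muscle markers, all lower (Myh11, Myl9, Acta2 and Tagln), and 0 genes of the other lists. Deviations of same-numbered libraries from their group means correlated at 0.52, 0.36 and 0.04 for replicates 1, 2 and 3. The first 2 were the highest of all pairs, while GFP replicate 3 correlated best with NeuroD1 replicate 2 (0.12). The labels do not say what equal numbers share, and with 3 libraries per group these correlations cannot settle it. DESeq2 called lower 1 of the other endothelial factors, 10 markers, 6 targets and 3 Wnt genes, and 1 Wnt gene higher. Over all genes it tested, it called 3.87% lower and 5.04% higher. With a library left out, the other endothelial factors lower at an unadjusted p under 0.05 numbered 0 to 7 and the Wnt genes 3 to 7. The median of the members lay between -1.33 and -0.92 over all alternatives. With the stricter filter Fendrr was not tested. With single libraries left out, the sign changed for Tal1 (-0.75 to 0.29), for Foxq1 (-0.21 to 0.31) and Sox7 (-0.25 to 0.08) relative to the markers, for Tubb3 (-0.09 to 0.58) and Zic1 (-0.13 to 1.16), and for the medians of the thalamic (-0.05 to 0.37), neuronal (-0.19 to 0.57) and lymphatic lists (-0.2 to 0.23). Tal1 was at 0.29 without GFP replicate 2 and at 0.01 without NeuroD1 replicate 1. The neuronal median was -0.0 with limma-voom and the lymphatic median -0.2 with the stricter filter. The causes of these changes were not tested. Levels relative to the markers and the shares within a library do not depend on the scaling, so only left-out libraries were tried for them. Depth limits Fendrr most, with 2 to 5 counts per NeuroD1 library.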
